A study of Rattus norvegicus with 8 samples.

Results

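Testes taken 4 d after 1 oral dose of Adjudin were compared with untreated testes, 3 arrays against 3, out of 8 arrays in the series. Compared were all probe sets of the array that were not hybridisation controls and that reached a deposited signal of 50 on at least 2 of the 6 arrays. These were 19303 of 31042 probe sets (62.2%), and they stood for 11087 named genes, each read from 1 probe set, the one with the highest mean signal. Of the genes, 1666 were higher at 4 d (15.0% of those tested) and 1246 were lower (11.2%). Of the listed genes of the lysosome 22 of 29 rose, and of those for the uptake of dead cells 16 of 22. Of the listed genes of the sperm tail 13 of 23 fell, and of those of sperm chromatin 6 of 8. With all genes in 4 equal classes by signal, 25.4% fell in the class of highest signal.

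The rats were adult Sprague-Dawley males. The treated group received 50 mg/kg body weight of Adjudin by gavage, as 1 dose, and the control group was untreated. A vehicle group is not named. Both groups were whole testis, of which 0.1 g of frozen tissue was extracted, so every value is a mixture of all cell types of the organ. In such a mixture fewer cells of a type and less RNA per cell cannot be told apart. The study's purpose, by its title, was to describe the loss of germ cells that the compound induces. Group membership was read from the sample titles, since the description field calls all samples normal testis. Nothing in the labels says that each array held a different animal. The p-values therefore rest on the spread among these arrays that is left after pairing by date of hybridisation. This spread may be technical. A further 2 arrays of the series, from testes 8 h after the same dose, are quoted for some genes as values only.

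In the seminiferous tubule, Sertoli cells nurse germ cells that pass from spermatogonia through spermatocytes to round and then elongating spermatids. Elongating spermatids are held by the apical ectoplasmic specialization, an adherens junction built on bundled actin filaments in the Sertoli cell. Adjudin, an indazole derivative related to lonidamine, is known for opening this junction, so that germ cells are shed early into the lumen. Sertoli cells also engulf dying germ cells and the residual cytoplasm of spermatids, and digest them in lysosomes.

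Signal is the brightness of a probe set on a linear scale. All arrays had been scaled to the same average (2% trimmed mean of 250.1 each), and 53.2% to 59.0% of the probe sets reached a signal of 50 on each of the 6. The arrays had been hybridised on 3 occasions, called runs, each with 1 control and 1 array at 4 d. Values are listed below in the order of run 1, run 2 and run 3 in both groups, and the 8 h arrays in the order of run 1 and run 3. Differences were taken within runs on the log2(signal + 16) scale and tested in limma with the run as a block, at an adjusted p of 0.05. Genes are called higher or lower, or said to have risen or fallen, only where they passed that test. Without the pairing by run 805 genes were higher (7.26%) and 532 lower (4.80%), and all of these were also among the calls with the pairing. The paired shares of all genes, 15.0% higher and 11.2% lower, are the background for every list count given here. The lists were chosen with earlier results of these data known. Their counts therefore describe these data and are no independent support for a change. A gene with fewer than 2 controls at a signal of 50 was tested because of its arrays at 4 d, a selection that favours rises. Wnt4, Serpina3n, Casp6, Ptprc and Fzd1 are among such genes. A gene with fewer than 2 arrays at 4 d at that signal is selected towards falls in the same way. The background differed with signal. With genes in 4 equal classes by signal, 11.1% rose and 25.4% fell in the class of highest signal. Most named genes of the sperm lists had such a high signal, so 11.2% is a low background for their falls. The signals of different probe sets do not measure relative abundance, and each single gene is compared only with itself. Summed signals, given for some lists, mostly follow the probe sets of highest signal in the list. For single genes, the fits in which a call was lost are given at the end of a paragraph. A called gene with no such remark passed in every fit that tested it.

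Most of the largest rises began from controls under 100. Wnt4, a secreted signalling ligand, went from 2.50, 5.90 and 4.50 in the controls, far below the minimum of 50, to 901, 1021 and 936 at 4 d (log2 5.58, SE 0.14), with 13.8 and 37.6 at 8 h. The size of its change depends on the number added to the signal, with a log2 change of 3.89 when 64 was added, against 4.60 for Hpx and 4.32 for Testin. Testin, a protein secreted by Sertoli cells, went from 53.7, 32.9 and 33.6 to 1711, 2039 and 2292 (log2 5.19, SE 0.18), with 74.9 and 89.7 at 8 h. In both genes the 8 h arrays lay above the controls and far below the arrays at 4 d. Hpx encodes hemopexin, a plasma protein that binds free haem. Its signal was 61.9, 48.2 and 89.7 in the controls and 2682, 2673 and 4064 at 4 d, a 38.3-fold rise (log2 5.26, SE 0.11, adjusted p = 2.57e-07). The gap between the groups was many times the spread within either, and at 8 h the signal was 194 and 305. Timp1 encodes a tissue inhibitor of metalloproteases and was already measurable in the controls. It went from 323, 428 and 654 to 6654, 5366 and 9416 (log2 3.90, SE 0.13, adjusted p = 3.12e-06), while the 8 h arrays read 615 and 871. Lcn2, a secreted protein that binds iron carriers of bacteria, stood at 739, 577 and 901 in the controls and at 4027, 3874 and 5526 at 4 d (log2 2.58, SE 0.09). Both genes showed no overlap between the groups, and their highest value in each group came from run 3.

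**Figure D1:**
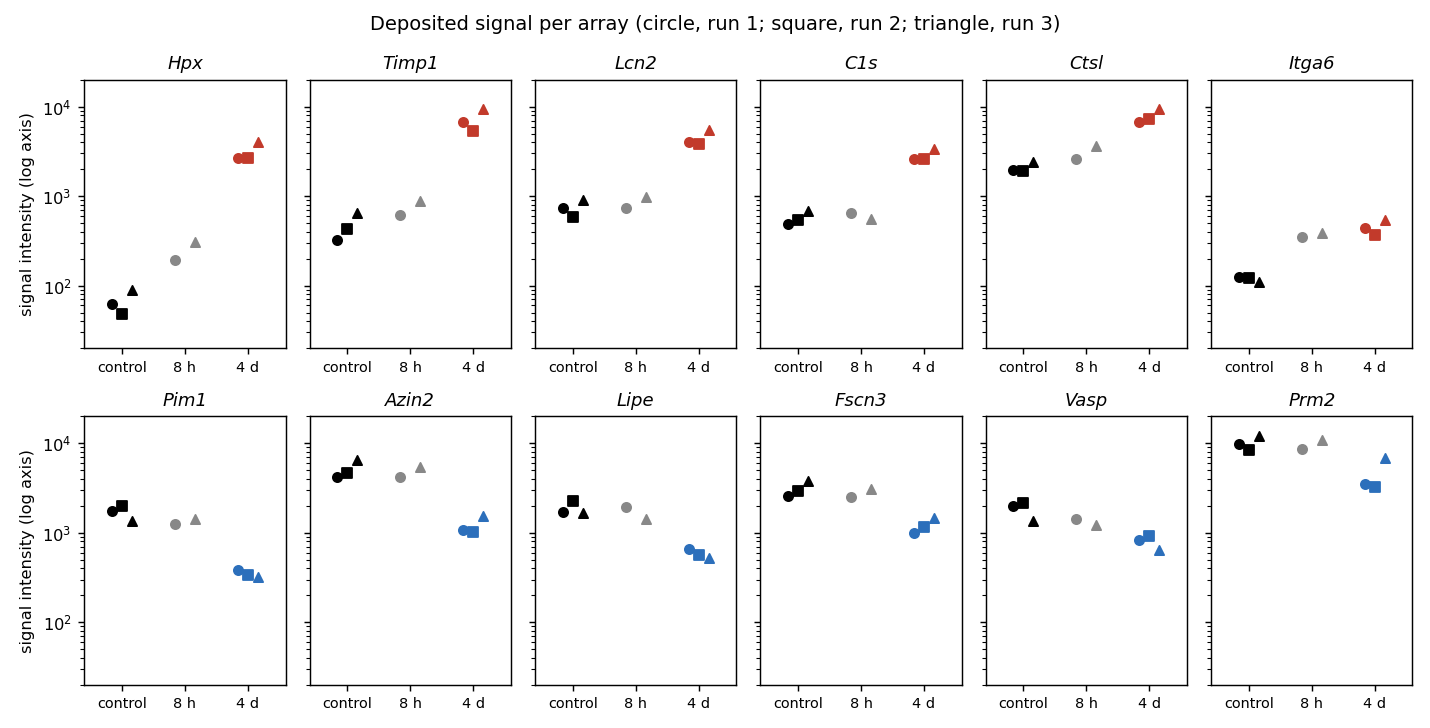
Deposited signal (log axis) of 12 genes on every array, by group, with the marker shape giving the run. In the upper row every array at 4 d lies above every control, and in the lower row below; for Hpx, Ctsl and Itga6 the 8 h arrays already lie above the controls.

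Other large rises were seen in genes of varied roles. Hsd11b2, the enzyme that inactivates corticosterone, read 29.4, 24.0 and 45.8 in the controls and 359, 433 and 318 at 4 d. Synpo, an actin-associated protein known from kidney podocytes, read 31.6, 28.1 and 7.40 in the controls and 248, 207 and 259.7 at 4 d. Tnfrsf12a, the receptor for the cytokine TWEAK, read 55.3, 33.2 and 27.0 in the controls and 354, 307 and 295 at 4 d, with 104 and 172 at 8 h. In all 3 the lowest array at 4 d exceeded the highest control at least 2-fold. The calcium-binding protein S100a11 (log2 2.77), the chemokine Ccl6 (2.81), the orphan receptor Gpr176 (2.58), the drug efflux pump Abcc3 (2.57) and Mybphl, a relative of myosin-binding proteins (2.54), were of like size. Serpina3n, Gpnmb, Vgf and Trim2 were the other genes with an 8-fold rise on this scale, at log2 changes of 3.18 to 3.98. In all, 468 genes rose at least 2-fold, 55 at least 4-fold and 8 at least 8-fold.

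The falls were smaller, and several began from a high signal. Azin2 encodes an inhibitor of antizymes, which control polyamine synthesis, and is expressed in haploid germ cells. Its signal was 4240.0, 4702 and 6582 in the controls and 1065, 1033 and 1544 at 4 d (log2 -2.08, SE 0.08, adjusted p = 3.54e-06). Pim1, a serine/threonine kinase, went from 1746, 2006 and 1360.5 to 379.6, 336 and 323 (log2 -2.23, SE 0.12). Neither gene overlapped between the groups, and at 8 h both were near the controls (4159.8 and 5476 for Azin2, 1251 and 1445 for Pim1). MGC93861, known by a clone name, was as steep, at 2614, 3787 and 4158 and then 477, 770.0 and 761. Lrp8, a receptor of the LDL receptor family, read 435, 385 and 425 in the controls and 123, 117 and 91.9 at 4 d. Car2, a carbonic anhydrase, read 416, 479 and 443 in the controls and 127, 105 and 203 at 4 d, and Asb13, a substrate receptor of a ubiquitin ligase, 3758, 3459.9 and 3840.0 in the controls and 1128, 1148 and 1366 at 4 d. The 8 h arrays of these 3 were at 478 and 405, 369.5 and 391 and 3614 and 3462. A different course was seen in P4ha3, a subunit of collagen prolyl hydroxylase, which read 291, 269.5 and 137 in the controls, 5.30 and 89.5 at 8 h and 22.9, 30.2 and 9.80 at 4 d. Of all genes 178 fell at least 2-fold, 8 at least 4-fold and 0 at least 8-fold.

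The share of calls in each direction differed along the range of probe set signal. Genes were divided into 4 equal classes by their mean log2 signal over the 6 arrays. In the class of highest signal, from a signal of 695.4 upward, 11.1% of genes rose and 25.4% fell. In the class of lowest signal 12.2% rose and 4.2% fell, and the middle classes held 18.6% and 18.1% rises against 6.5% and 8.9% falls. The median log2 change was -0.07 in the class of highest signal and 0.03 in that of the lowest. Genes of high signal that fell were Smcp, a cysteine-rich protein of sperm mitochondria, Gpx4, a glutathione peroxidase abundant in sperm, and Pebp1, an inhibitor of Raf kinase. Smcp read 15273, 14104 and 20282 in the controls and 10560.0, 10274 and 15304 at 4 d, a fall of the same sign in each run whose groups nevertheless overlapped. Genes of high signal that rose were Clu, which encodes clusterin and is secreted by Sertoli cells (7115, 8178 and 8673 against 10101, 10630.0 and 13573), Tmsb4x, an actin-sequestering peptide (5228, 4996 and 3891 against 8200.1, 7408 and 8766), and Psap, the precursor of the saposins of lysosomes (4591, 4575 and 4716 against 6969.7, 7435 and 7237). Without the pairing, Smcp (adjusted p = 0.195), Gpx4 (adjusted p = 0.298), Pebp1 (adjusted p = 0.342) and Clu (adjusted p = 0.0694) did not pass. Calls were further lost for Smcp, Gpx4 and Pebp1 with quantile normalization, for Gpx4 and Pebp1 with no intensity trend.

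**Figure D2:**
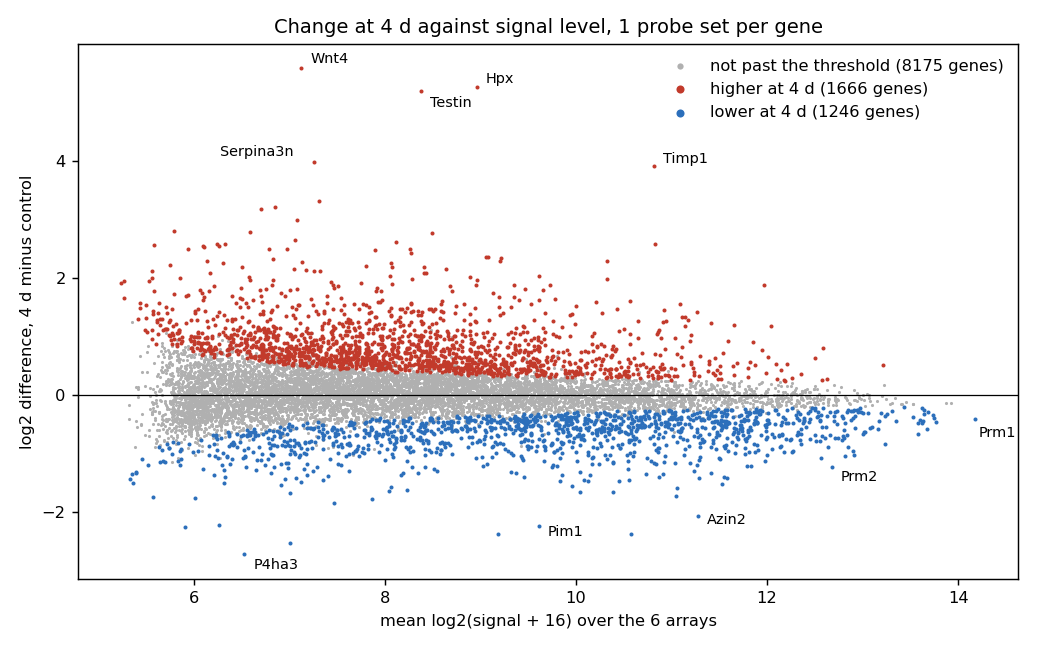
Log2 difference (4 d minus control) of 11087 genes against their mean log2(signal + 16) over the 6 arrays; red genes are higher, blue genes lower, grey genes did not pass. Large rises sit at low and middle signal, while blue points dominate at the high end with small differences.

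A few genes crossed the signal minimum altogether. A signal under 50 on every control and of at least 50 on every array at 4 d was found for 147 genes, of which 110 were called higher. In 7 of the 147 the signal was at least 200 on every array at 4 d. The opposite pattern, at least 50 on every control and under 50 on every array at 4 d, was found for 52 genes, of which 20 were called lower. Pde9a, a cyclic GMP phosphodiesterase, was one of the latter and went from 156, 141 and 154 to 11.4, 18.9 and 30.5. Scx, a transcription factor of tendon that is also described in Sertoli cells, went from 98.6, 101 and 111 to 14.4, 44.5 and 7.50. Zcchc18, a zinc finger protein, missed the pattern on 1 array, at 342, 270.5 and 274 in the controls and 24.2, 32.3 and 62.6 at 4 d. Fold changes of such genes depend on the added 16. In both patterns the genes reached the minimum in 1 group only, and the groups are apart by definition. The counts of calls among them are therefore no separate support for a change.

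Genes that package the sperm nucleus mostly fell. Of 8 measured genes of sperm chromatin, 6 fell and 0 rose, with a list median of -0.40 against 0.03 for all genes. Of all genes 11.2% fell, and 25.4% of those in the class of highest signal. Without the pairing 3 fell, as did 3 after quantile normalization and 3 with no intensity trend. Prm2, the protamine that is made as a precursor, read 9802, 8416 and 12173 in the controls and 3533, 3216 and 6895 at 4 d (log2 -1.22, SE 0.11, adjusted p = 0.000214). Prm3, a small acidic protein of the same gene cluster, read 7164, 6819.8 and 7710.3 in the controls and 4171, 4157 and 4521 at 4 d, and both genes showed no overlap. Prm1, the other protamine, read 20531, 16767 and 28324 in the controls and 14444, 13920.0 and 20794 at 4 d, and the control of run 1 was below the 4 d array of run 3. Tnp1, a transition protein that precedes the protamines, behaved in the same manner at 14539, 12999 and 20923 in the controls and 10571, 10609 and 15281 at 4 d. The log2 changes of Prm1 and Tnp1 were -0.41 and -0.40. Cdyl, a chromodomain protein, also fell (log2 -0.62). The pairing was needed for the call of Prm1 (adjusted p = 0.322) and Tnp1 (adjusted p = 0.306). Other settings ended calls for Prm1 and Tnp1 with quantile normalization, for Prm1 and Tnp1 with no intensity trend, for Cdyl with all probe sets of a gene averaged.

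The tail list was the longest of the sperm lists. Of 23 measured genes 13 fell and 0 rose (background 15.0% higher and 11.2% lower), with medians of -0.38, -0.36 and -0.51 in the 3 runs. Among all genes in the class of highest signal 25.4% fell. Without the pairing 5 fell, and with no intensity trend 7 did. Fscn3, a testis fascin that bundles actin, read 2597, 2935 and 3751 in the controls and 988, 1151 and 1482 at 4 d (log2 -1.35, SE 0.07, adjusted p = 2.4e-05). Akap4, the main protein of the fibrous sheath, read 9009.9, 8969 and 12272 in the controls and 4746, 4976 and 6679 at 4 d (log2 -0.88, SE 0.06). In both genes every array at 4 d was below every control. Cabs1, a calcium-binding protein of the sperm tail, fell by 1.07 on the log2 scale, Tcp11 by 0.63 and Oaz3, an antizyme made in spermatids, by 0.59. When runs were not paired, Oaz3 (adjusted p = 0.101) did not pass. Summed over the 23 genes the signal was 134536 to 187025 in the controls and 100704 to 129279 at 4 d, ranges that did not overlap.

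Acrosome and fusion genes fell or did not pass. Of 11 measured genes 6 fell and 0 rose, and 1 fell without the pairing or with no intensity trend. Among all genes in the class of highest signal 25.4% fell. Acr, the protease acrosin, read 2144, 2277 and 1675 in the controls and 1360.2, 1619 and 1193 at 4 d (log2 -0.54, SE 0.08, adjusted p = 0.0022), with no overlap. Spaca3, a lysozyme-like protein of the acrosome, read 2959, 2985 and 3314 in the controls and 2154, 2424 and 1770.0 at 4 d. Acrbp, a binding protein of proacrosin, and Acrv1, a protein of the acrosomal matrix, fell by 0.43 and 0.55 on the log2 scale, and Spam1, a hyaluronidase of the sperm surface, by 0.56. Crisp2, another acrosomal protein, read 13354, 12254 and 18521 in the controls and 10839, 10687 and 14490.0 at 4 d, which overlapped. Unpaired, the call was lost for Acr (adjusted p = 0.0793), Acrbp (adjusted p = 0.0676), Acrv1 (adjusted p = 0.0998), Spam1 (adjusted p = 0.182) and Crisp2 (adjusted p = 0.426). Leaving out a run also ended calls, with the adjusted p in brackets: without run 3 that of Spam1 (0.0674). Among the other settings, calls ended for Crisp2 with quantile normalization, for Spaca3, Acrbp, Acrv1, Spam1 and Crisp2 with no intensity trend. After quantile normalization the sign of Crisp2 turned (log2 0.05).

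Among genes for the energy supply of sperm, 4 of 11 fell and 0 rose, and 3 fell without the pairing. Of all genes in the class of highest signal 25.4% fell. With equal array medians 7 fell. Gapdhs, the glyceraldehyde-phosphate dehydrogenase bound to the fibrous sheath, read 11716, 11581 and 15694 in the controls and 6311, 7197 and 8241 at 4 d (log2 -0.83, SE 0.06). Atp1a4, the sodium pump subunit of the sperm tail, read 4395, 4229 and 4870.1 in the controls and 2489.8, 2908 and 2634 at 4 d. The groups of both genes were apart. Got1l1, a relative of an aspartate transaminase, fell by 0.78 and Cox6b2, the testis form of a cytochrome c oxidase subunit, by 0.27 on the log2 scale. Without the pairing, Cox6b2 (adjusted p = 0.173) did not pass. Calls were further lost for Cox6b2 with quantile normalization, for Cox6b2 with no intensity trend.

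Of 13 measured round spermatid genes 6 fell and 1 rose, with a median of -0.23 (25.4% of all genes fell in the class of highest signal). Without the pairing 4 fell and 0 rose, and with no intensity trend 3 fell. Pim1 and Azin2, described above, had the largest falls of this list. Tssk2, a testis-specific serine kinase, followed with 7535, 7065 and 9683 in the controls and 4239.5, 4409 and 5970.5 at 4 d (log2 -0.73, SE 0.06), without overlap. Camk4, a calcium/calmodulin-dependent kinase, fell by 0.60 on the log2 scale. Taf7l, a germ cell form of a TFIID subunit, was the 1 gene that rose (log2 0.53, adjusted p = 0.0461), and its groups overlapped. The pairing was needed for the call of Camk4 (adjusted p = 0.0667) and Taf7l (adjusted p = 0.213). Calls also ended with a run left out (adjusted p in brackets): without run 2 that of Taf7l (0.24), without run 3 that of Taf7l (0.122). Other settings ended calls for Taf7l with quantile normalization, for Taf7l with equal array medians, for Camk4 and Taf7l with no intensity trend, for Taf7l with no signal minimum, for Taf7l with a pseudocount of 4.

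Earlier germ cells showed few calls. Of 15 spermatocyte genes 1 fell and 0 rose, with a median of -0.02, and of 9 spermatogonium genes 0 fell and 1 rose. Without the pairing 0 of either list were called. Of all genes 15.0% were higher and 11.2% lower. Syce3, a protein of the synaptonemal complex, was the spermatocyte gene that fell, from 362, 318 and 483 to 264, 264 and 266. Uchl1, a deubiquitinase of spermatogonia, was the gene that rose, from 786, 889.8 and 1057 to 1026, 1157 and 1334, with overlap. When runs were not paired, Syce3 (adjusted p = 0.113) and Uchl1 (adjusted p = 0.21) did not pass. Leaving out a run also ended calls, with the adjusted p in brackets: without run 1 that of Uchl1 (0.0703), without run 2 that of Uchl1 (0.0826), without run 3 that of Syce3 (0.129). Also lost were the calls of Uchl1 with equal array medians, of Syce3 and Uchl1 with no intensity trend, of Syce3 with no signal minimum. The spermatogonium median was -0.18 and differed in sign from the medians within the runs, which were 0.12, 0.07 and 0.28. Of 25 cell division genes 4 were lower and 1 was higher. Without the pairing 1 was lower and 0 higher, 2 were lower without run 2, without run 3 or with no intensity trend, and 7 with equal array medians. Bub1, a checkpoint kinase, fell from 1495, 1360.4 and 1579 to 1083, 908 and 1028, and Mcm2, a helicase subunit of replication, rose (log2 0.56). Unpaired, the call was lost for Mcm2 (adjusted p = 0.1). Single runs mattered as well (adjusted p in brackets): without run 2 that of Mcm2 (0.143), without run 3 that of Mcm2 (0.132). Among the other settings, calls ended for Mcm2 with quantile normalization, for Mcm2 with equal array medians, for Mcm2 with no signal minimum, for Mcm2 with all 8 arrays in the fit.

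**Figure D3:**
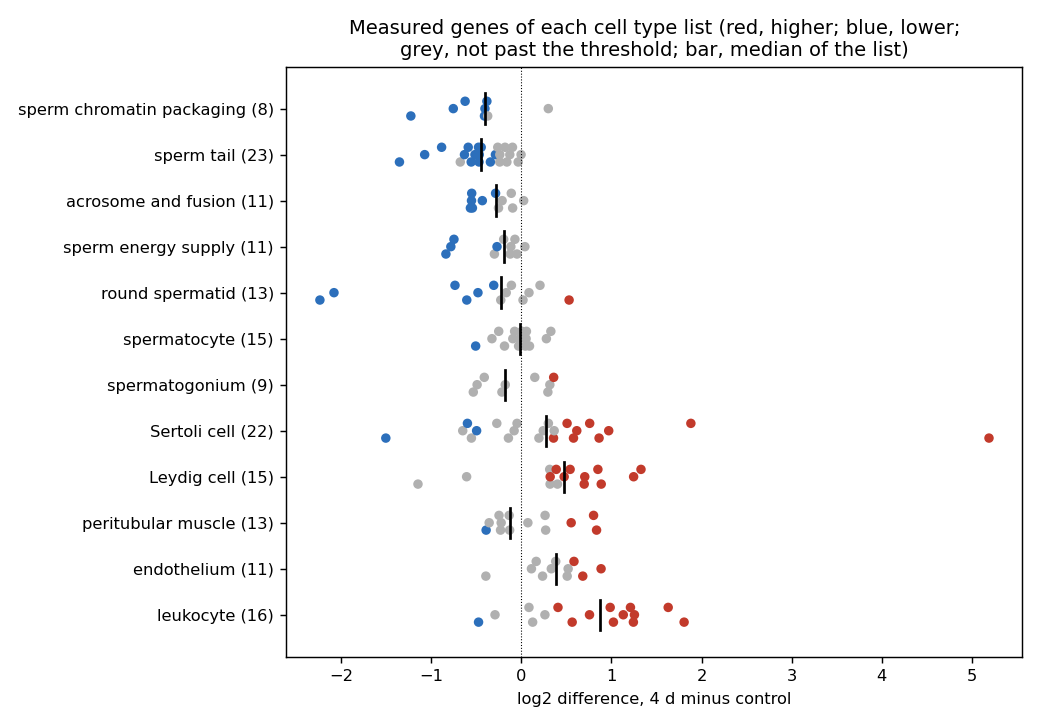
Log2 differences (4 d minus control) of the measured genes of 12 cell type lists, 1 point per gene, with the median of each list as a bar and the number of measured genes in brackets. Points of the sperm lists lie mostly left of 0, those of spermatocytes on both sides, and those of Leydig cells and leukocytes mostly right of 0.

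Sertoli cell genes moved in both directions. Of 22 measured genes 9 rose and 3 fell (background 15.0% and 11.2%), and 6 and 1 did so without the pairing. Ctsl encodes cathepsin L, a protease that Sertoli cells secrete, and read 1939.6, 1911 and 2406 in the controls and 6655, 7264 and 9394 at 4 d (log2 1.88, SE 0.07, adjusted p = 3.54e-06). Shbg, which encodes androgen-binding protein, read 1097, 1179 and 1052 in the controls and 1889, 1920.5 and 2304 at 4 d, and Cst12, a cystatin, 1542, 1533 and 1394 in the controls and 2827, 2629.8 and 3390.3 at 4 d. No array at 4 d overlapped a control in these 3 genes, and the 8 h arrays of Shbg read 879 and 1022, below the controls. The 3 that fell were Rhox5, an androgen-responsive homeobox gene (log2 -1.50), Nr0b1, an orphan nuclear receptor (-0.60), and Inhbb, the beta B subunit of inhibin and activin (-0.49). Without the pairing, Nr0b1 (adjusted p = 0.118) and Inhbb (adjusted p = 0.0933) did not pass. Calls also ended with a run left out (adjusted p in brackets): without run 1 that of Inhbb (0.0623), without run 2 that of Rhox5 (0.0958) and Inhbb (0.0813), without run 3 that of Rhox5 (0.143) and Inhbb (0.0938). Calls were further lost for Rhox5 with no intensity trend, for Inhbb with no signal minimum. Rhox5 was near the minimum, at 28.5, 67.3 and 73.6 in the controls and 18.2, 4.40 and 5.00 at 4 d.

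Leydig cell genes were higher or not past the test. Of 15 measured genes 10 rose and 0 fell (background 15.0% and 11.2%), and 4 rose without the pairing. Without run 1 or with equal array medians 6 rose, and with no intensity trend 5. Hsd11b1, which regenerates active glucocorticoid, read 1149, 1342 and 1716 in the controls and 3075, 3027 and 4599 at 4 d (log2 1.33, SE 0.08, adjusted p = 3.77e-05). Scarb1, the receptor that takes up cholesterol from HDL, read 223, 340.0 and 376 in the controls and 795, 647 and 814 at 4 d. Both genes were apart between the groups. Cyb5a, a cytochrome that aids androgen synthesis, and Nr2f2, a nuclear receptor, rose by 0.85 and 0.89 on the log2 scale. Insl3, a peptide hormone of Leydig cells, read 1357, 1127 and 1828 in the controls and 1897, 2069.9 and 3125 at 4 d (log2 0.71). The summed signal of the list was 10367 to 14193 in the controls and 14922 to 22592 at 4 d. Prlr was also among the 10 that rose (log2 0.54), with overlap, and another of its probe sets was called lower (log2 -0.84, adjusted p = 0.0188). The pairing was needed for the call of Insl3 (adjusted p = 0.0952) and Prlr (adjusted p = 0.447). Without run 1 (adjusted p = 0.111) or run 3 (0.107) the call of Prlr was lost. It was also lost with quantile normalization, equal array medians, no intensity trend and all its probe sets averaged (log2 -0.06).

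Most smooth muscle and vessel genes had no call. Of 13 peritubular muscle genes 3 rose and 1 fell, and of 11 endothelial genes 3 rose and 0 fell (background 15.0% and 11.2%). Without the pairing each list had 1 rise. Myl9, a myosin light chain, read 863, 924 and 990.5 in the controls and 1504, 1488 and 2053 at 4 d (log2 0.84), without overlap, while Des and Tpm1 rose by 0.80 and 0.55 and Myh11, the smooth muscle myosin heavy chain, fell by 0.39. Sox18, an endothelial transcription factor, went from 35.3, 40.8 and 30.7 to 79.7, 79.3 and 78.2. Esam and Vwf, adhesion proteins of endothelium, rose by 0.68 and 0.59. When runs were not paired, Des (adjusted p = 0.0857), Tpm1 (adjusted p = 0.115), Myh11 (adjusted p = 0.0823), Esam (adjusted p = 0.127) and Vwf (adjusted p = 0.126) did not pass. Single runs mattered as well (adjusted p in brackets): without run 1 that of Myh11 (0.086), Sox18 (0.0508), Esam (0.0578) and Vwf (0.0696), without run 2 that of Myh11 (0.1) and Vwf (0.0572), without run 3 that of Des (0.0538), Sox18 (0.0618) and Vwf (0.141). Also lost were the calls of Vwf with quantile normalization, of Vwf with equal array medians, of Myh11 with no intensity trend, of Tpm1 and Myh11 with all probe sets of a gene averaged, of Vwf with no signal minimum, of Vwf with all 8 arrays in the fit. Of the epididymis and fat list 2 genes were measured: Cst8 fell (log2 -0.81) and Cfd rose (1.03). Pecam1, a defining endothelial marker, did not reach the signal minimum, at 5.2 to 36.4 in the controls and 33.3 to 49.7 at 4 d.

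Leukocyte genes rose in most cases. Of 16 measured genes 11 rose and 1 fell, and 7 and 0 did so without the pairing. Without run 3 also 7 rose. Lyz2, the lysozyme of macrophages, read 330.1, 346 and 415 in the controls and 1086, 1269.8 and 1616 at 4 d (log2 1.81, SE 0.10, adjusted p = 2.44e-05). Fcer1g, a signalling chain of Fc receptors, read 122, 183 and 138 in the controls and 366, 367 and 343 at 4 d. Cd68, a lysosomal protein of macrophages, went from 34.3, 67.0 and 40.5 to 135, 129 and 131, and Coro1a, an actin regulator of leukocytes, from 21.8, 57.3 and 33.9 to 141, 126 and 168. The groups were apart in each of these 4. Ptprc, the common leukocyte antigen, was near the minimum (24.0, 22.9 and 5.00 in the controls, 73.4, 55.5 and 52.0 at 4 d). The gene that fell, Aif1, known in macrophages, read 3766, 3275 and 3216 in the controls and 2247, 2443 and 2690.5 at 4 d. Without the pairing, Ptprc (adjusted p = 0.054) and Aif1 (adjusted p = 0.0512) did not pass. Leaving out a run also ended calls, with the adjusted p in brackets: without run 3 that of Ptprc (0.055). In the remaining fits calls were lost for Aif1 with no intensity trend, for Aif1 with all probe sets of a gene averaged. The summed signal was 5342 to 5726 in the controls and 6326 to 7041 at 4 d. Aif1, which fell, made up most of this sum in the controls. Itgam, Cd3e, Cd8a, S100a8 and S100a9, markers of neutrophils, monocytes and T cells, were under 50 on every array and did not reach the minimum.

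Lysosomal genes rose in most cases. Of 29 measured genes 22 rose and 0 fell (background 15.0% and 11.2%), and 17 passed without the pairing. The list median was 0.87, with 0.71, 0.81 and 0.92 in the 3 runs. Ctsa, a carboxypeptidase that protects other lysosomal enzymes, read 222, 404 and 386 in the controls and 1127, 994 and 1694 at 4 d (log2 1.87, SE 0.18). Ctsb, the protease cathepsin B, read 1168, 1241 and 1384 in the controls and 3508, 3416 and 4260.0 at 4 d, and Lgmn, the protease legumain, 454, 531 and 475 in the controls and 1502, 1565 and 1545 at 4 d. The groups were apart in all 3. Gpnmb, a glycoprotein of lysosome and melanosome membranes, rose from 33.2, 30.7 and 40.2 to 420.2, 523 and 514 and Tpp1, a peptidase, by 1.44 on the log2 scale. The summed signal of the 29 genes was 20526 to 24475 in the controls and 35384 to 41319 at 4 d. Leukocyte genes moved in the same direction (11 of 16 higher), and their part in these rises was not tested.

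Genes for the recognition and clearance of dead cells rose as well. Of 22 measured genes 16 rose and 0 fell (background 15.0% and 11.2%), and 13 passed without the pairing. The leukocyte list was higher too (11 of 16), and its part was not tested. Tgm2, a transglutaminase that aids engulfment, read 373, 338 and 406 in the controls and 1588, 1769 and 1373 at 4 d (log2 2.03, SE 0.13, adjusted p = 3.79e-05). Anxa2, an annexin that binds phosphatidylserine, read 842, 881 and 841 in the controls and 2479, 2313 and 3151 at 4 d. Pros1, which bridges dying cells to TAM receptors, read 162, 155 and 177 in the controls and 420.1, 371 and 535 at 4 d. None of these 3 overlapped. Abca1, a pump that exports cholesterol after engulfment, read 61.2, 268 and 200.0 in the controls and 686, 607 and 818 at 4 d, with a wide spread among the controls. Genes of lipid handling were divided: 11 of 21 rose and 3 fell, and 5 and 1 did so without the pairing. With equal array medians or no intensity trend 6 rose. Abcg1, another cholesterol exporter, rose from 155, 133 and 145 to 434, 509 and 368, and Apoe, the apolipoprotein, from 1933, 1876 and 2632 to 4581, 4668 and 5378. Plin2, which coats lipid droplets, and Elovl5, a fatty acid elongase, rose by 0.91 and 0.97 on the log2 scale. Lipe, the hormone-sensitive lipase, fell from 1698, 2276 and 1666 to 656, 560.1 and 528, with no overlap, and Dgat2 and Fads2 were the others that fell (log2 -0.57 and -0.65). The pairing was needed for the call of Dgat2 (adjusted p = 0.0558) and Fads2 (adjusted p = 0.0753). Single runs mattered as well (adjusted p in brackets): without run 2 that of Fads2 (0.0558), without run 3 that of Fads2 (0.105). Other settings ended calls for Fads2 with no signal minimum.

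Most inhibitors of proteases rose. Of 18 measured genes 15 rose and 1 fell, and 11 and 0 did so without the pairing. Serpinb1a, an inhibitor of neutrophil proteases, read 98.3, 89.3 and 101 in the controls and 565, 744 and 721 at 4 d (log2 2.62, SE 0.14). Serping1, which inhibits complement C1 and kallikrein, read 195, 275 and 299 in the controls and 1066, 1128 and 1781 at 4 d, and A2m, alpha-2-macroglobulin, 406, 415 and 476 in the controls and 1307, 1214 and 1591 at 4 d. Every array at 4 d exceeded every control in these 3, while the 8 h arrays of Serpinb1a (75.2 and 99.3) did not exceed the controls. Serpina3n, a secreted serpin, rose with a wide spread at 4 d (636, 284 and 1142). The inhibitor that fell was Serpina5 (log2 -0.54), which inhibits protein C. Secreted proteases rose in 7 of 18 cases and fell in 1, Mmp16 (log2 -0.70), against a background of 15.0% and 11.2%. Without the pairing 2 rose. Only 3 rose without run 3, with no signal minimum or with equal array medians, and 4 at a signal minimum of 100. Htra1, a secreted serine protease, read 209, 208 and 249.9 in the controls and 877, 972 and 969.7 at 4 d, and Plat, tissue plasminogen activator, 56.8, 76.1 and 62.7 in the controls and 204, 244 and 178 at 4 d, without overlap in either. Adamts1, Adamts4 and Mmp11 rose from controls under 50, by 0.92, 0.98 and 0.79 on the log2 scale. Only arrays at 4 d brought these 3 past the signal minimum, a selection that favours rises. A further 7 listed proteases did not reach the minimum and are outside these counts. When runs were not paired, Serpina5 (adjusted p = 0.0807), Mmp16 (adjusted p = 0.119), Adamts1 (adjusted p = 0.0831), Adamts4 (adjusted p = 0.0885) and Mmp11 (adjusted p = 0.0801) did not pass. Calls also ended with a run left out (adjusted p in brackets): without run 1 that of Mmp11 (0.0812), without run 2 that of Mmp16 (0.0824), without run 3 that of Mmp16 (0.0944), Adamts1 (0.164) and Mmp11 (0.132). Also lost were the calls of Adamts1 and Mmp11 with equal array medians, of Adamts1 with no intensity trend, of Mmp16, Adamts1 and Mmp11 with no signal minimum, of Adamts1 with a pseudocount of 4.

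Matrix genes rose in 18 of 32 cases and fell in 0, and 10 passed without the pairing. Col18a1, the collagen that gives rise to endostatin, read 216, 210.1 and 119 in the controls and 549.7, 459 and 495 at 4 d (log2 1.43, SE 0.17). Lamc1, the laminin gamma 1 chain, read 197, 204 and 216 in the controls and 515, 455 and 542 at 4 d, and Fbn1, a microfibril protein, 139, 106 and 152 in the controls and 364, 267 and 399 at 4 d. These 3 did not overlap between the groups. Spp1, osteopontin, rose from 156, 59.7 and 88.1 to 678, 283 and 335, and its 8 h arrays (198 and 279) already exceeded the controls. Col3a1, a fibrillar collagen, rose by 1.15 with 1 high control (392, 316 and 760.4).

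Adherens junction genes, those of the apical ectoplasmic specialization included, were more often higher than lower. Of 30 measured genes 15 rose and 3 fell, and 8 and 1 did so without the pairing. With no intensity trend 9 rose. Integrin alpha 6 (Itga6), which with integrin beta 1 forms a receptor for laminin at that junction, read 126, 121 and 109 in the controls, 351 and 384 at 8 h and 444, 364 and 546 at 4 d (log2 at 4 d 1.78, SE 0.16, adjusted p = 0.000172). Its partner Itgb1 read 276, 381 and 417 in the controls, 562 and 659 at 8 h and 1061, 833 and 910.4 at 4 d. For both, all arrays of treated rats exceeded all controls. Parva, which links integrins to actin, read 123, 90.7 and 119 in the controls and 278, 236 and 338 at 4 d, and Actn1, a bundler of actin filaments, 57.5, 79.2 and 60.5 in the controls and 249.7, 194 and 214 at 4 d. The 3 that fell were actin regulators or adhesion proteins. Vasp, which promotes actin filament growth, fell from 2009.8, 2179 and 1344 to 829.6, 931 and 636 (log2 -1.18, SE 0.09), without overlap. Espn, which bundles the actin of the ectoplasmic specialization, read 1012, 1097 and 1602 in the controls and 646, 682 and 964 at 4 d, and Cadm1, an adhesion molecule that germ cells express, 1897, 1969 and 2458 in the controls and 1427, 1536 and 1458 at 4 d. Without the pairing, Espn (adjusted p = 0.088) and Cadm1 (adjusted p = 0.051) did not pass. In the remaining fits calls were lost for Cadm1 with no intensity trend, for Cadm1 with all probe sets of a gene averaged.

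Tight and gap junction genes showed 4 rises and 2 falls among 16, and 3 and 0 without the pairing. Cldn11, a claudin of the blood-testis barrier, read 2714, 2997 and 3362 in the controls and 4543, 4741 and 6206 at 4 d (log2 0.76, SE 0.07), without overlap. Cldn5, a claudin of endothelium and Sertoli cells, rose from 241, 241 and 232 to 461, 414 and 512, and the adhesion molecules F11r and Jam2 by 0.83 and 0.72. Other probe sets of Jam2 were called lower (log2 -0.60, adjusted p = 0.0421) and higher (log2 0.87, adjusted p = 0.00402). Gja1, connexin 43, read 1412, 1276 and 1792 in the controls, 1798 and 1917 at 8 h and 857, 794 and 1234 at 4 d. The lower 8 h array barely exceeded the highest control, and the 4 d arrays were below all controls. Pard6a, a polarity protein, also fell (log2 -0.48, adjusted p = 0.0499). The pairing was needed for the call of Jam2 (adjusted p = 0.0923), Gja1 (adjusted p = 0.0814) and Pard6a (adjusted p = 0.109). Calls also ended with a run left out (adjusted p in brackets): without run 1 that of Pard6a (0.212), without run 2 that of Pard6a (0.0688), without run 3 that of Pard6a (0.135). Other settings ended calls for Jam2 and Pard6a with no intensity trend, for Jam2 with all probe sets of a gene averaged, for Pard6a with no signal minimum, for Pard6a with a pseudocount of 4, for Pard6a with all 8 arrays in the fit.

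Genes of the actin cortex and the annexins mostly rose. Of 23 genes of cortical actin and filaments 14 rose and 2 fell (10 and 2 without the pairing), and of 15 annexin and S100 genes 13 rose and 0 fell, all 13 also without the pairing. Tpm4, a tropomyosin, read 168, 158 and 128 in the controls and 676, 592 and 802 at 4 d (log2 2.08, SE 0.15). Arpc1b, a subunit of the complex that branches actin, read 247, 289.9 and 341 in the controls and 1025, 909.9 and 1102 at 4 d, and Ezr, ezrin, which ties actin to the membrane, 86.3, 89.9 and 92.7 in the controls and 295, 246 and 286 at 4 d. The groups were apart in all 3. Lcp1, an actin bundler best known in leukocytes, read 139, 155 and 138 in the controls and 685, 619.7 and 838 at 4 d, and the leukocyte list was higher too (11 of 16), a part that was not tested. Nes, nestin, an intermediate filament, rose from 12.7, 19.9 and 30.5 to 162, 159 and 150.0. The 2 that fell were Lsp1, a leukocyte-specific actin-binding protein (log2 -1.38), and Capg, an actin capping protein (-0.64). S100a10, the partner of Anxa2, read 221, 218 and 299 in the controls and 1091, 926 and 803 at 4 d, and Anxa3 84.3, 93.2 and 97.3 in the controls and 252, 201 and 262 at 4 d. Leaving out a run also ended calls, with the adjusted p in brackets: without run 2 that of Capg (0.0628).

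**Figure D4:**
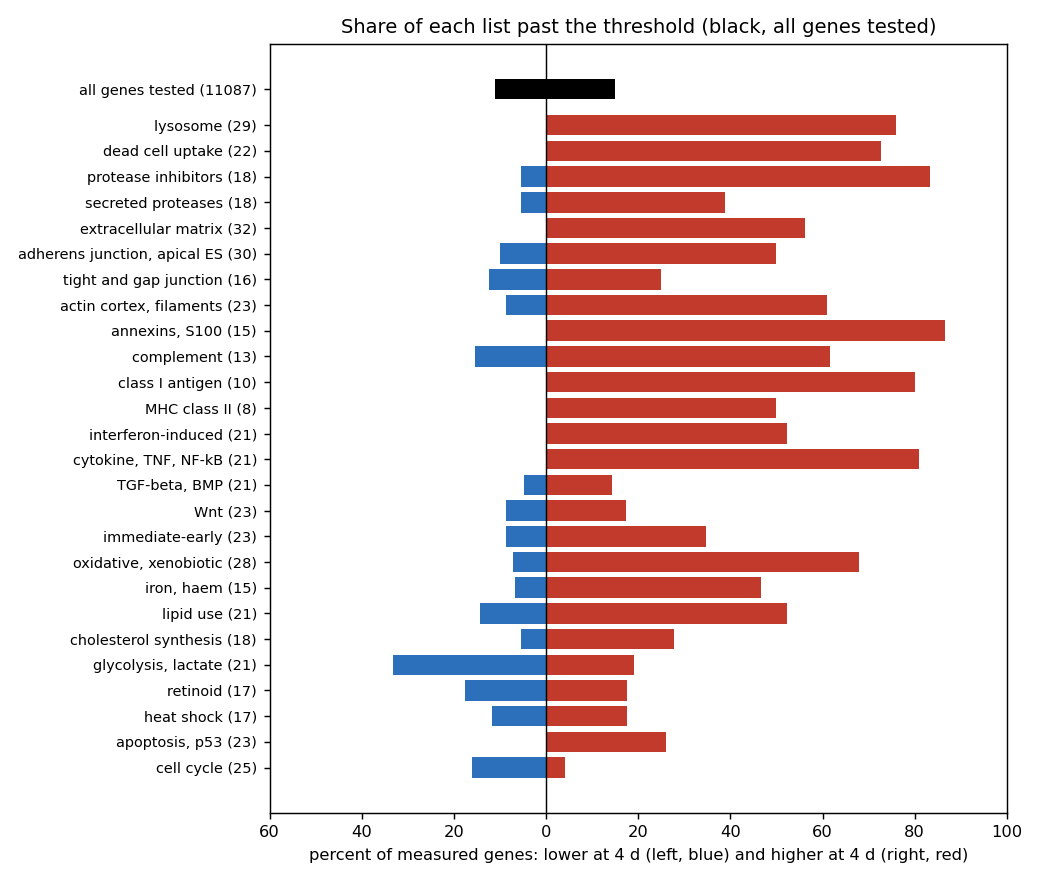
Share of the measured genes of 26 lists that were lower (left, blue) or higher (right, red) at 4 d, in percent, with the number of measured genes in brackets and all 11087 tested genes in black (15.0% higher, 11.2% lower). Annexins, protease inhibitors, cytokine genes, class I antigen genes and the lysosome reach furthest to the right.

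Among immune genes beyond the leukocyte markers rises were more frequent than falls. Of 13 complement genes 8 rose and 2 fell, of 8 MHC class II genes 4 rose and 0 fell, of 10 genes of class I antigen processing 8 rose and 0 fell, and of 21 interferon-induced genes 11 rose and 0 fell. C1s, a protease of the first complement component, read 487, 547 and 679 in the controls and 2607, 2572 and 3347 at 4 d (log2 2.29, SE 0.09, adjusted p = 4.08e-06), and C1r, its partner, 609, 531 and 632 in the controls and 1771, 1604 and 1809 at 4 d. Neither overlapped. Cd55 and Cd46, membrane proteins that restrain complement, were the 2 that fell (log2 -0.74 and -0.70). Another probe set of Cd55, of lower signal, was called higher (log2 0.54, adjusted p = 0.0468). RT1-Da, an MHC class II chain, read 184, 237 and 255 in the controls and 1049, 1075 and 1587 at 4 d, and B2m, the light chain of class I molecules, 2259, 2902 and 3298 in the controls and 5741, 5642 and 7722 at 4 d. Gbp2, an interferon-induced GTPase, read 128, 90.2 and 104 in the controls and 618, 507 and 588 at 4 d, and Irf1, an interferon-regulated transcription factor, 74.2, 85.4 and 68.9 in the controls and 359, 284 and 320.1 at 4 d. The groups of these 4 were apart. The remaining 10 genes of the interferon list had no call. The leukocyte list was higher in 11 of 16 genes beside these groups, and its part in them was not tested. Among the other settings, calls ended for Cd55 with all probe sets of a gene averaged. RT1-Ba was counted among the MHC class II genes that rose (log2 1.53, adjusted p = 0.0161). Another of its probe sets was called lower (log2 -1.21, adjusted p = 0.0332). With all probe sets of a gene averaged its log2 change was 0.04, its call was lost and 3 MHC class II genes rose. The call of RT1-Ba was also lost with no intensity trend.

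Of 21 genes of cytokines, TNF and NF-kappaB signalling 17 rose and 0 fell (background 15.0% and 11.2%), and 10 passed without the pairing. The leukocyte list was higher beside them (11 of 16), and its part was not tested. A further 10 listed genes, among them Tnf, Il1b and Il6, did not reach the signal minimum and are outside these counts. Nfkb2 and Ccl2 reached the minimum on no control, and Icam1 and Tnfrsf12a only on their highest control. Arrays at 4 d therefore brought these genes into the counts, a selection that favours rises. Tnfrsf1a, the main receptor for TNF, read 95.4, 114 and 133 in the controls, 215 and 257 at 8 h and 653, 706 and 778 at 4 d (log2 at 4 d 2.49, SE 0.12). Icam1, an adhesion molecule that binds leukocytes, read 26.5, 45.0 and 59.8 in the controls, 123 and 181 at 8 h and 189, 147 and 233 at 4 d. In both genes all treated arrays exceeded all controls. Nfkb2 and Ccl2, an NF-kappaB subunit and a chemokine for monocytes, had controls under 50 and rose by 1.95 and 1.71, and their 8 h arrays (75.9 and 65.0 for Nfkb2, 117 and 153 for Ccl2) were close to those at 4 d. Immediate-early genes were mixed, with 8 of 23 higher and 2 lower at 4 d, and 5 higher at a signal minimum of 100. Ier3, an early stress-response gene, read 77.4, 55.9 and 87.4 in the controls, 653 and 683 at 8 h and 338, 238 and 411 at 4 d. Gadd45a, a DNA damage and stress gene, read 142, 145 and 143 in the controls, 188 and 231 at 8 h and 289, 334 and 373 at 4 d. Nr4a1, an orphan nuclear receptor, and Dusp4, a phosphatase of MAP kinases, were lower (log2 -0.79 and -0.77). Without the pairing, Nr4a1 (adjusted p = 0.0659) did not pass. Calls also ended with a run left out (adjusted p in brackets): without run 2 that of Nr4a1 (0.0976), without run 3 that of Dusp4 (0.0663). In the remaining fits calls were lost for Nr4a1 with no intensity trend.

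In growth factor pathways rises were about as frequent as among all genes. Of 21 TGF-beta and BMP genes 3 rose and 1 fell, and of 23 Wnt genes 4 rose and 2 fell (background 15.0% and 11.2%). At a signal minimum of 100, 2 Wnt genes were higher. Bmp6, a ligand, read 123, 122 and 101 in the controls and 325, 322 and 199 at 4 d (log2 1.15), and Tgfb3, a ligand described at the blood-testis barrier, 157, 139.9 and 109.6 in the controls and 253, 303 and 252 at 4 d, both without overlap. Smad1, which carries BMP signals, rose by 1.11, and Acvr2a, an activin receptor, fell by 0.54. Wnt4, described above, was one of the genes that rose. The secreted Wnt antagonists went both ways. Wif1 fell from 2563, 2252 and 2757 to 1214, 1419 and 1295 and Sfrp2 from 110.3, 143 and 104 to 47.7, 49.9 and 46.9, while Sfrp1 rose from 112, 116 and 99.3 to 256, 234 and 164, all without overlap. The receptor Fzd1 rose by 1.38 from controls under 20. The Wnt median of 0.05 became -0.08 when array medians were equalised and -0.04 after quantile normalization. The pairing was needed for the call of Smad1 (adjusted p = 0.062). Leaving out a run also ended calls, with the adjusted p in brackets: without run 2 that of Acvr2a (0.0952).

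Genes against oxidative and foreign compounds rose in 19 of 28 cases and fell in 2, and 11 and 0 did so without the pairing. With equal array medians or no intensity trend 11 rose. Gstp1, a glutathione transferase, read 673, 647 and 573 in the controls and 2554, 2761 and 2272 at 4 d (log2 1.97, SE 0.09, adjusted p = 1.08e-05). Gpx1, a glutathione peroxidase of the cytosol, read 504, 703 and 842 in the controls and 1813, 1844 and 2535 at 4 d, and Gstm7 1726, 1953 and 1642 in the controls and 3945, 3833 and 4790.3 at 4 d. No overlap was seen in these 3, and the 8 h arrays of Gstp1 read 641 and 834. The 2 that fell were Gpx4 (log2 -0.34) and Sod1 (-0.29). Of 15 iron and haem genes 7 rose and 1 fell. Slc11a2, an iron importer, read 329.8, 377 and 297 in the controls and 869, 785 and 848 at 4 d, Cp, the ferroxidase ceruloplasmin, 158, 184 and 171 in the controls and 365, 349 and 599.8 at 4 d, and Alas1, which starts haem synthesis, 504, 634 and 640.1 in the controls and 1148, 1020.3 and 1558 at 4 d. The gene that fell was Hmox2, a constitutive haem oxygenase (log2 -0.61). Red cell genes rose in 2 of 3 cases. Hbb, a haemoglobin chain, read 1038, 1958 and 1541 in the controls and 4781, 2457 and 3855 at 4 d, and Alas2, the erythroid form of Alas1, 472, 527 and 571 in the controls and 828, 742 and 770.5 at 4 d. The part of blood in the tissue in the changes of iron and haem genes was not tested. Hbb, RT1-Da and Gstm7 have close relatives in the genome, and signal from a relative was not separated. When runs were not paired, Gpx4 (adjusted p = 0.298) and Sod1 (adjusted p = 0.242) did not pass. Single runs mattered as well (adjusted p in brackets): without run 2 that of Sod1 (0.102), without run 3 that of Sod1 (0.109) and Hbb (0.0729). Also lost were the calls of Gpx4 and Sod1 with quantile normalization, of Gpx4, Sod1 and Hbb with no intensity trend, of Sod1 with no signal minimum.

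Glycolysis and lactate genes, through which Sertoli cells feed germ cells, were divided by gene. Of 21 measured genes 4 rose and 7 fell (background 15.0% and 11.2%), and 1 and 3 did so without the pairing. With no intensity trend 4 fell. The glucose carrier Slc2a1 read 130.3, 148 and 104 in the controls and 212, 245 and 245 at 4 d (log2 0.81, SE 0.15), without overlap. Pgk1, Pgam1 and Ldhb, enzymes of glycolysis and lactate exchange, were the other 3 that rose, by 0.80, 0.67 and 0.46. Gpi, which forms fructose phosphate, fell from 1641, 2182 and 2075 to 1026, 1059 and 1338, and Tpi1, triosephosphate isomerase, from 5927, 6834 and 7649 to 3432, 4113 and 4463, again with the groups apart. Retinoid genes showed 3 rises and 3 falls among 17, and 3 and 1 without the pairing. The enzymes Aldh1a1 and Aldh1a3, which make retinoic acid, rose from 954, 1354 and 1194 to 3525, 2844 and 3230.5 and from 239, 300.1 and 358 to 602, 693 and 591, and Crabp2, a carrier of retinoic acid, by 1.46. Rdh10, which makes retinal, fell from 2743, 2507 and 3119 to 1549, 1571 and 1943. Dhrs3, which turns retinal back, and Cyp26a1, which degrades retinoic acid, fell by 0.51 and 0.90. Unpaired, the call was lost for Pgk1 (adjusted p = 0.0512), Pgam1 (adjusted p = 0.0729), Ldhb (adjusted p = 0.0836), Dhrs3 (adjusted p = 0.076) and Cyp26a1 (adjusted p = 0.129). Calls also ended with a run left out (adjusted p in brackets): without run 1 that of Dhrs3 (0.0706) and Cyp26a1 (0.0771), without run 2 that of Dhrs3 (0.122) and Cyp26a1 (0.083), without run 3 that of Dhrs3 (0.0835) and Cyp26a1 (0.115). Among the other settings, calls ended for Ldhb with no intensity trend, for Dhrs3 and Cyp26a1 with no signal minimum, for Cyp26a1 with a pseudocount of 4.

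Of 23 apoptosis and p53 genes 6 rose and 0 fell (background 15.0% and 11.2%), and 4 rose without the pairing. Ccng1, a p53 target, read 194, 185 and 189.7 in the controls, 301 and 404 at 8 h and 411, 507 and 714 at 4 d (log2 1.41, SE 0.16). Bid, a promoter of cell death, rose by 0.97, Mcl1, an inhibitor of it, by 0.68 and Bbc3, a p53 target, by 1.01, and Casp6, a caspase, rose from 10.6, 8.80 and 4.30 to 74.7, 50.3 and 124. Of 17 heat shock genes 3 rose and 2 fell, and 2 and 0 did so without the pairing. Hspd1 and Hspe1, the chaperonin pair of mitochondria, read 831, 759.9 and 910.1 and 938, 872 and 1391 in the controls and 1572, 1252 and 1841 and 1943, 1709 and 3055 at 4 d, without overlap. Hsp90ab1 rose by 0.28, and Hsf2 and Dnajb1 fell by 0.41 and 0.23. Of 18 cholesterol synthesis genes 5 rose and 1 fell, and 1 and 0 did so without the pairing. Without run 1, 2 or 3 the rises numbered 3, 3 and 2, and 3 with no signal minimum, quantile normalization or equal array medians. Msmo1, a sterol oxidase, rose by 0.70 and Dhcr7, a sterol reductase, by 0.60, while Fdps, which makes farnesyl diphosphate, fell from 4046, 5012 and 4424 to 2867, 3729 and 3058. Of 8 housekeeping genes Hprt1 (log2 0.60) and Rpl13a (0.53) rose and 0 fell, and 1 rose without the pairing. Gapdh was read only by control probe sets and was not tested, with signals of 2158 to 2522 in the controls and 3326.0 to 3874 at 4 d, which did not overlap. Without the pairing, Bbc3 (adjusted p = 0.137), Hsp90ab1 (adjusted p = 0.422), Hsf2 (adjusted p = 0.169), Dnajb1 (adjusted p = 0.397), Dhcr7 (adjusted p = 0.0523), Fdps (adjusted p = 0.0729) and Rpl13a (adjusted p = 0.21) did not pass. Leaving out a run also ended calls, with the adjusted p in brackets: without run 1 that of Hsp90ab1 (0.169), Hsf2 (0.0636) and Dnajb1 (0.0903), without run 2 that of Hsp90ab1 (0.126), without run 3 that of Bbc3 (0.0624), Hsf2 (0.145) and Dnajb1 (0.137). In the remaining fits calls were lost for Dnajb1 with quantile normalization, for Hsp90ab1 with equal array medians, for Bbc3, Hsp90ab1, Hsf2, Dnajb1 and Hprt1 with no intensity trend, for Hsf2 and Dnajb1 with all probe sets of a gene averaged, for Bbc3, Hsp90ab1, Hsf2 and Dnajb1 with no signal minimum.

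The array also reads some genes with more than 1 probe set, which bind different stretches of a transcript. Of 2946 genes with several tested probe sets 1075 had a call, and 339 had at least 2 called probe sets. Of these 339 genes 306 changed in 1 direction and 33 in both. The shares of all probe sets were 13.2% higher and 8.79% lower. In Tmod1, which caps actin filaments, 1 probe set read 3570.1, 3417 and 4819.5 in the controls and 1772, 1943 and 2468 at 4 d, and fell by 0.92 on the log2 scale. Another probe set of Tmod1 read 89.7, 81.8 and 59.1 in the controls and 216, 255 and 286 at 4 d, and rose by 1.54. In Rai14, an actin-associated protein known from Sertoli cells, 1 probe set read 1017, 1041 and 1085 in the controls and 529, 582 and 734 at 4 d and another 101, 74.6 and 75.5 in the controls and 228, 224 and 242 at 4 d. In Slc52a3, a riboflavin transporter, the falling probe set read 129, 104 and 102 in the controls and 70.6, 50.8 and 46.4 at 4 d and the rising one 219.7, 238 and 148 in the controls and 432, 418 and 421 at 4 d. Every pair was apart between the groups in its own direction in these 3 genes. With all probe sets of a gene averaged the calls of Tmod1 (adjusted p = 0.0659), Rai14 (0.108) and Slc52a3 (0.616) were lost. In 8 of the 33 genes both directions were called without the pairing too. The part of each transcript that a probe set binds was not analysed here.

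**Figure D5:**
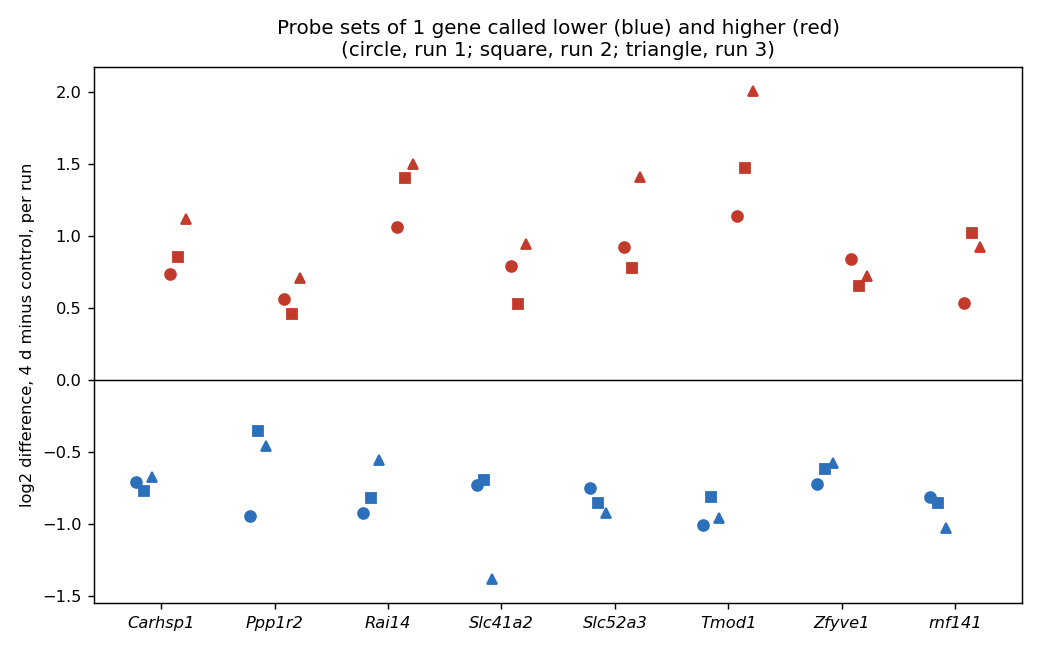
Log2 difference (4 d minus control) within each run of the probe set called lower (blue) and of that called higher (red) in the 8 genes called in both directions with and without the pairing, with the marker shape giving the run. In each of the 8 genes the blue points lie below 0 and the red points above it in all 3 runs.

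Promoters were compared because genes of several groups moved together. A window from 250 bases before to 50 after the start of the gene was taken from RefSeq (build GRCr8) and was found for 9284 of the 11087 tested genes. Each motif was searched on both strands. The cyclic AMP response element, written TGACGTNA, is the site of CREM, the factor that drives many spermatid genes. It was present in 3.39% of all 27457 promoters in the RefSeq table, in 5.12% of tested genes, in 3.78% of genes that rose and in 5.57% of genes that fell. It was in 2.08% of genes that rose at least 2-fold and in 5.11% of those that fell at least 2-fold. The AP-1 site, written TGANTCA, was present in 7.33% of all promoters, 4.85% of tested genes, 5.17% of those that rose and 6.04% of those that fell. The antioxidant element, written TGACNNNGC, was present in 12.17% of all, 14.77% of tested, 15.65% of risen and 14.91% of fallen genes. The lysosomal E-box, written TCACGTGA, and the interferon element, written GAAANNGAA, were in 1.68% and 6.90% of tested genes, in 1.89% and 9.32% of those that rose and in 1.13% and 7.08% of those that fell. Over all promoters these 2 shares were 0.87% and 9.50%. Among genes that rose at least 2-fold the AP-1 site was in 6.51%, the antioxidant element in 15.89%, the E-box in 1.30% and the interferon element in 10.16%. Among those that fell at least 2-fold the shares in the same order were 5.11%, 15.33%, 0.00% (0 of 137) and 7.30%. The TGAC of the antioxidant motif can overlap the CRE. These shares describe letters in a window and were not tested.

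Promoters with the CRE and the AP-1 motif are shown for the gene with the largest rise and the gene with the largest fall that hold each, with the match in capitals. Vgf, a neuropeptide precursor (log2 3.22), lies on chr12:25276971-25277270, minus strand, and its CRE begins 90 bases before the start. C3h9orf50, an open reading frame (log2 -1.73), lies on chr3:34484693-34484992, minus strand, and its match, on the other strand, begins 74 bases before the start. Gpnmb (log2 3.31) lies on chr4:79340878-79341177, plus strand, with the AP-1 match 87 bases before the start. Phospho1, a phosphatase of bone mineralisation (log2 -2.38), lies on chr10:81258560-81258859, plus strand, with the match 219 bases before the start. All 4 windows are given 5′ to 3′ on the strand of the gene.
Vgf: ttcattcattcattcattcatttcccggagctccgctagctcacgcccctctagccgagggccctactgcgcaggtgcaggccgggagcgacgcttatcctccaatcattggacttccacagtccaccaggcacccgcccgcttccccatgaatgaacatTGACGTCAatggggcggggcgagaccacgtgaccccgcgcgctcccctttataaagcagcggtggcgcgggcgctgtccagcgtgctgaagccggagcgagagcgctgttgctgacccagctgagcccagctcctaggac
C3h9orf50: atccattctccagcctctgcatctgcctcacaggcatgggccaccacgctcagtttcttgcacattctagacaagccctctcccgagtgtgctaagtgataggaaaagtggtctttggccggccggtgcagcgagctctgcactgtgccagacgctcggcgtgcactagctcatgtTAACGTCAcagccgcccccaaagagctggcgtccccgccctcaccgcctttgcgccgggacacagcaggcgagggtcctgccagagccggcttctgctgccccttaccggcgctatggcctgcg
Gpnmb: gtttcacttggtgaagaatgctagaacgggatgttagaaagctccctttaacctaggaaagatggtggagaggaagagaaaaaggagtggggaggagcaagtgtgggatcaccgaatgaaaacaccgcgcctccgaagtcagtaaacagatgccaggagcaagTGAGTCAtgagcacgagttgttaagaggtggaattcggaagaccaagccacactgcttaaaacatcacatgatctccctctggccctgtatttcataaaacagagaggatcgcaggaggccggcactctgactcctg
Phospho1: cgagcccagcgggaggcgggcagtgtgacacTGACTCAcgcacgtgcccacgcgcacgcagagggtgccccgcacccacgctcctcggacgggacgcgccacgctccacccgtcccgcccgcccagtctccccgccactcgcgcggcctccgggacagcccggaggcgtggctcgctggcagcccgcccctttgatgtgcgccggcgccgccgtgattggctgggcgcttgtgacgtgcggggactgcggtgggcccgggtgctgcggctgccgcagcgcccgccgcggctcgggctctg

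The differences of the 3 runs were correlated, and their spread was largest in run 3. Over all genes the SD of the differences was 0.566, 0.528 and 0.636 in runs 1, 2 and 3. Across genes the differences of run 1 and run 2 correlated at r = 0.725, those of run 1 and run 3 at 0.687 and those of run 2 and run 3 at 0.651, a description over genes, which are not independent. Among the genes called higher the median differences were 0.72, 0.65 and 0.85 in runs 1, 2 and 3, and among those called lower -0.62, -0.53 and -0.67. The called genes were picked by the fit on these same differences, so agreement between runs is partly built into these medians. Of all genes 59.6% had the same sign in every run. The groups did not overlap in 2210 genes that were higher at 4 d and in 1600 that were lower, and 1466 and 1039 of these were called. The balance between rises and falls depended on the scaling: of all probe sets called, 59.9% were higher with the deposited scaling, 53.1% after quantile normalization and 38.8% when the arrays were set to equal medians. The median log2 change of all probe sets moved from 0.041 to -0.095 with equal medians. Among probe sets with no single gene symbol 10.6% were higher and 5.6% lower, against 13.9% and 9.7% of those with 1 symbol.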

How the data were processed

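RNA of whole rat testis had been hybridised to 1 Affymetrix array per sample. The deposited intensity of a probe set is linear and was computed by the authors with MAS 5.0, and GeneSpring 7.2 is named beside MAS 5.0 in the submitters' processing notes and design text. The 57 control probe sets were left out, and a probe set was kept where its signal reached 50 on 2 of the 6 arrays. Log2(signal + 16) was fitted in limma 3.58.1 (R 4.3.3) with group and run as terms, an intensity trend in the variance, and Benjamini-Hochberg adjustment over 19303 probe sets at 0.05. The fit was tested on simulated data. Each gene was read from the probe set of highest mean signal with a single symbol. Symbols came from the platform annotation. The number of arrays limits the precision.

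Runs are the hybridisation dates of the arrays, each holding 1 control and 1 array at 4 d, and run 2 used another version of the fluidics protocol. Runs were used as pairs by these dates. Deviations from the group mean correlated at 0.38, 0.365 and 0.519 between control and 4 d arrays of the same run. Between those of different runs they correlated at -0.384 to 0.129. Deviations within a group sum to 0, so this contrast is partly built in.

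Members and gene lists were chosen with earlier results of these data known. Named are the 20 genes with the largest rise and the 20 with the largest fall, up to 5 called members of each list, the 8 called genes of highest mean signal in each direction, and genes whose probe sets were called in opposite directions. Genes called against the main direction of a list, where these were 5 or fewer, were named after their values were seen. Alternatives covered the block, the arrays in the fit, the pseudocount, the signal minimum, the scaling, the variance trend, each run left out and averaging all probe sets of a gene.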

Additional observations from a re-analysis of the deposited data

How the results depend on the processing

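With no replicate block, the pairing by run being dropped, 1140 probe sets were higher and 667 lower, as were 805 and 532 genes and 187 and 34 list members, against 283 and 81 list members with the block. Equal array medians gave 1679 higher and 2648 lower probe sets, and a fit with no intensity trend gave 1087 lower probe sets, 755 lower genes and 47 lower list members. With 1 run left out in turn, 1634 to 2145 probe sets were higher, the lowest count without run 3, and 1253 to 1483 were lower. After quantile normalization the log2 change turned to 0.05 for Crisp2 and 0.06 for Fam229b. With all probe sets of a gene averaged it turned for Carhsp1 (0.09), Cast (0.50), Epb41l3 (0.09), Mfsd9 (0.17), Optn (0.40), Ppp1r2 (0.09), Prlr (-0.06), Rai14 (0.28), Socs5 (0.06), Sri (0.33), Tmbim6 (0.08), Tmod1 (0.31), Tpm3 (-0.05), Yme1l1 (0.21) and Zfyve1 (0.05), whose probe sets were called in opposite directions. The cause of the other changes was not tested. Of 269 named genes 78 lost their call without the block, 51 without the trend and 22, 28 and 38 without runs 1, 2 and 3, while 0 did with a pseudocount of 64. List medians changed sign in 5 lists at a signal minimum of 100 and in 4 with equal medians. Signal near the minimum of 50 limits what can be said of genes of low signal.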
